A study of Mus musculus with 15 samples.

Results

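CpG-dense stretches of the genome that are methylated in wild-type adult lung were described in wild-type mice and in mice heterozygous for Ctcf. All of these mice had been given the carcinogen urethane. The genome was divided into 1 kb tiles starting at multiples of 1000 bases, and autosomal tiles with at least 20 CpG cytosines covered by at least 10 reads in all 15 libraries were called CpG-dense. Of 17484 CpG-dense tiles, 1037 had a mean level above 50% over 6 wild-type libraries (wild-type replicate 2 left out, for the reason given below). They made up 5.93% of the CpG-dense tiles and 0.783% of the 132441 autosomal tiles with at least 3 such cytosines. The level of a tile is the plain mean, over its cytosines, of the percent of reads that kept C after bisulfite treatment and so came from methylated DNA. The tiles were selected on these wild-type levels, so the height of a tile in wild-type libraries is no finding, and every count of genotype differences below uses a wild-type arm that took part in the choice.

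The libraries came from whole lung of 8 mice heterozygous for Ctcf (4 labelled male, 4 female) and 7 wild-type littermates (3 male, 4 female). Every animal of both genotypes had received 1 dose of urethane, a lung carcinogen, at 1 mg/g body weight on day 14, so no untreated lung is in the set. Heterozygous mice were 46 to 54 weeks old and wild-type mice 48 to 55 weeks. Methylation was read by RRBS and ERRBS, the reduced representation kinds of bisulfite sequencing, which sample restriction fragments rich in CpG. Each library is 1 animal, whole lung holds many cell types, and a change in cell makeup cannot be told apart from a change of methylation within a cell type. The Ctcf allele itself, and whether the lungs carried tumours, are not given in the sources used here.

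In mammals most CpG sites are methylated, while CpG-dense stretches, many of them promoters, are usually kept free of methylation. Exceptions known from body tissues are promoters of germline genes, which are methylated and silenced during early development, CpG-rich stretches inside transcribed genes, where methylation follows transcription through the gene body, and imprinted control regions, where 1 parental copy is methylated. Ctcf encodes a zinc finger protein that anchors chromatin loops and whose binding to many of its sites is blocked by CpG methylation.

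In 2 libraries the Y chromosome went against the label. Wild-type replicate 2, labelled male, listed 300 Y cytosines, within the range of the libraries labelled female that match their label (271 to 326), and heterozygous replicate 5, labelled female, listed 1985, within that of the matching male ones (1915 to 2055). In both, the animal number of the sample title also differed from that in the name of the deposited table. Results are therefore given with all 15 libraries as labelled and with the 13 others (7 heterozygous, 6 wild-type). Total coverage per library ran from 217363415 to 302342776 reads over cytosines. In a methylated CpG-dense tile, read counts summed over its cytosines had a median of 3209 in a library. Taken as independent, these counts put the counting error of a tile at a median of 0.623 percentage points. A read that spans several cytosines counts at each of them, so the true error can be larger. Of 21 listed genes of lung cells, 13 had a measured gene end and 8 of these lay under 20% in wild-type libraries, among them those of Sftpc (surfactant protein C) at 1.61% and Nkx2-1 (the lung lineage factor) at 1.45%.

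Promoters that a methylated CpG-dense tile overlapped are printed here because they show what such a stretch looks like base by base. Each is the 300-base RefSeq window (build GRCm38.p6, the assembly of mm10) from 250 bases before to 50 bases after a gene's start, 5′ to 3′ on the gene's strand, with capitals at CpG sites of which a cytosine was measured in all 15 libraries. The first 4 are the germline genes with most measured cytosines: Ddx4 (an RNA helicase of germ cells), Dmrtb1 (a regulator of the switch from mitosis to meiosis in spermatogonia), Hormad1 (a component of the meiotic chromosome axis) and Mael (a factor of transposon silencing by piRNAs). The next, of a gene without a given role, lies inside Arhgap23. The last, of Smc1b (a meiotic cohesin subunit), is the contrast, an unmethylated window that only reaches into a methylated tile. They lie at chr13:112652261-112652560 (Ddx4, minus strand), chr4:107683540-107683839 (Dmrtb1, minus strand), chr3:95559429-95559728 (Hormad1, plus strand), chr1:166238695-166238994 (Mael, minus strand), chr11:97500291-97500590 (4933428G20Rik, minus strand) and chr15:85131908-85132207 (Smc1b, minus strand).
Ddx4: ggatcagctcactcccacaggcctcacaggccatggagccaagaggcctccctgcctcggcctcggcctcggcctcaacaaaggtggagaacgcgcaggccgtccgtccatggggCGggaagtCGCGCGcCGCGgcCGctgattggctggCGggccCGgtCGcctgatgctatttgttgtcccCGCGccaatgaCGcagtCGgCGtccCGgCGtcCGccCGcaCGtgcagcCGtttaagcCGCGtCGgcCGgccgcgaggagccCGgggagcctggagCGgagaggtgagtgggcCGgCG
Dmrtb1: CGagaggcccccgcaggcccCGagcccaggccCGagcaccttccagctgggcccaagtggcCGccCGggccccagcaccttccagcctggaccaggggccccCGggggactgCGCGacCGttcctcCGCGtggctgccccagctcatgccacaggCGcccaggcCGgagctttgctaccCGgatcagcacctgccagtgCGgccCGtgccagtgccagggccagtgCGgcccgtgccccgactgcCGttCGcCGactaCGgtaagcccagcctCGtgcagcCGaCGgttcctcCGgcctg
Hormad1: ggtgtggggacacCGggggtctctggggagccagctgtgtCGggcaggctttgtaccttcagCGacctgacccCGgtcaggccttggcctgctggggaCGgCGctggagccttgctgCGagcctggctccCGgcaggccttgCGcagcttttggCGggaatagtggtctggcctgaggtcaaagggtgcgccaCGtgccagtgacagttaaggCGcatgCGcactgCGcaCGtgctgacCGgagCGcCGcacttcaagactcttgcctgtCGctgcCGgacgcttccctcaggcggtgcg
Mael: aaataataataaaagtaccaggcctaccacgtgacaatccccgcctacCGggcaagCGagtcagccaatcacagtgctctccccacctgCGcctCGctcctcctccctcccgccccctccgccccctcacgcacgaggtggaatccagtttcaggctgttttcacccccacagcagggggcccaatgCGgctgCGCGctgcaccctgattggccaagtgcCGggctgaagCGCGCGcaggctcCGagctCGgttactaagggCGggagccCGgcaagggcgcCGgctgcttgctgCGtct
4933428G20Rik: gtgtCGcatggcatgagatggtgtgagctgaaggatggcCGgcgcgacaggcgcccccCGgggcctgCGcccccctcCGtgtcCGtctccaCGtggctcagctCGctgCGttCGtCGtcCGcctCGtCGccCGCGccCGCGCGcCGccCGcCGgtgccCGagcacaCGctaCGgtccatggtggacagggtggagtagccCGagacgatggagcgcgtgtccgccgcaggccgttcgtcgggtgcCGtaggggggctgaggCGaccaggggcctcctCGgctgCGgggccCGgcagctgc
Smc1b: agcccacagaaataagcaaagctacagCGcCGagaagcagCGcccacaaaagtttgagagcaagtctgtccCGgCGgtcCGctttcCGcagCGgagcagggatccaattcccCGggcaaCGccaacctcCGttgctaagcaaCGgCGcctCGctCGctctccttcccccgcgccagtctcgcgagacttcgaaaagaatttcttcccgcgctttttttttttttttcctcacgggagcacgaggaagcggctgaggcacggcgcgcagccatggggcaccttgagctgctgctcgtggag

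Mean levels over the measured cytosines were high in all of these windows but that of Smc1b. The Ddx4 window held 38 CpG sites, 29 of them measured, and its 47 measured cytosines averaged 73.6% in the 6 wild-type libraries and 72.4% in the 7 heterozygous ones. Dmrtb1 stood at 83.8% and 84.5%, Hormad1 at 87.1% and 88.3%, and Mael at 80.02% and 80.1%. The window of 4933428G20Rik was at 70.03% and 68.8%. The Smc1b window was at 4.38% in wild-type and 5.74% in heterozygous libraries, although a tile that overlaps it lay above 50%. The window crosses a tile border, and its measured CpG sites all lay beyond that border, outside the methylated tile.

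Promoters were rare among the methylated CpG-dense tiles. Of the 1037, 56 (5.40%) overlapped a promoter window, against 53.5% of the 16447 other CpG-dense tiles. Altogether 62 promoter windows overlapped a methylated CpG-dense tile; 39 of them had at least 5 measured cytosines, and 33 of those 39, from 32 genes, were themselves above 50%. Across all autosomal promoter windows with as many measured cytosines, 269 of 10534 (2.55%) were above 50%, so 236 methylated promoters lay outside CpG-dense methylated tiles. The 33 windows were richer in CpG than those 236, with a median of 19 against 9 CpG sites in 300 bases, and less rich than the 10265 unmethylated windows, which had a median of 25. Of the 32 genes, 8 were in a list of 81 genes of germ cells and meiosis. The others included Lep (leptin, made by fat cells) at 71.8%, Fgf6 (a growth factor of muscle) at 71.9%, Hsf5 (a heat shock factor of spermatocytes) at 88.5% and Zglp1 (a zinc finger protein of the gonads) at 76.3%.

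For 3 short motifs both strands of the promoter windows were searched, and a match is only a run of letters. The E-box CACGTG was in 10 of the 33 methylated windows (30.3%), among which overlapping windows of Hormad1 each count. It was in 7.14% of all 31365 windows and in 10.6% of the unmethylated measured ones. Of the 236 methylated windows outside methylated CpG-dense tiles, 7.20% had it. Among the 8 germline genes, 5 had it (Ddx4, Hormad1, Mael, Slc25a31 and Sycp1), and among the 24 other genes 4 had it. The E2F motif TCCCGC was in 33.3% of the 33 windows and in 20.2% of all windows, but in 43.8% of the unmethylated measured ones. It was in 8.05% of the 236 methylated windows outside methylated CpG-dense tiles. CCANNAGNNGGC, a core of the CTCF motif, was in 2 of the 33 (6.06%) and in 2.47% of all windows. Matches of different motifs may overlap at their ends, and E-box and E2F were added after levels had been seen.

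Germline genes were the gene group with the largest share of methylated CpG-dense tiles among the 7 lists compared. In or within 1 kb of the listed germline genes lay 29 CpG-dense tiles, of which 18 (62.1%) were methylated, in 16 genes, and 13 of the 18 covered a promoter. The share over all CpG-dense tiles was 5.93%. At single promoter windows, 23 germline genes had at least 5 measured cytosines, 15 of these were above 50% in wild-type libraries, 3 lay between 20% and 50% and 5 at or below 20%. The low ones were Dmc1, Smc1b, Syce2, Hspa1l and Tdrkh. Synaptonemal complex genes were thus on both sides: the window of Sycp1, of the transverse filament, was at 85.2% ± 0.756 (SD, n = 6), and that of Syce2, of the central element, at 1.99% ± 0.880. Boll, a relative of Dazl that acts in meiosis, fell just outside the rule: its CpG-dense tile had a wild-type mean of 49.9%.

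**Figure D1:**
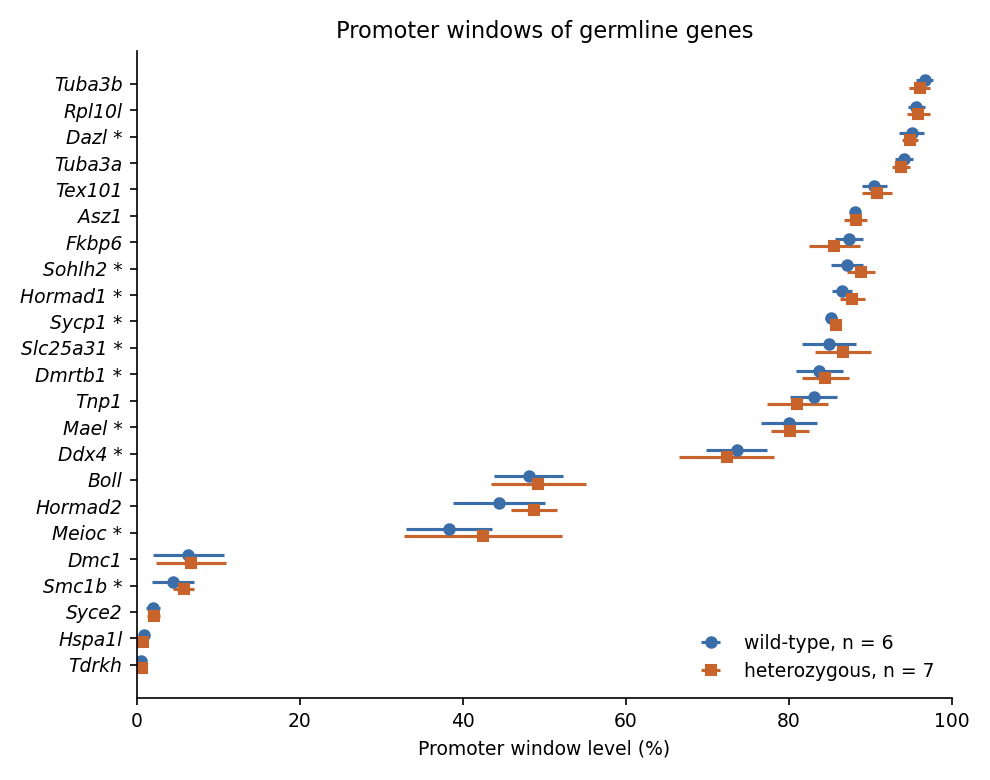
Mean level of the 300-base promoter window of each listed germline gene with at least 5 measured cytosines (x axis, percent of reads methylated; bars, SD), in 6 wild-type (circles) and 7 heterozygous (squares) libraries; an asterisk marks windows that overlap a methylated CpG-dense tile. 15 windows lie above 50% and 5 at or below 20%, and in each gene both genotypes lie close together.

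By genotype, the regression described below called 0 of the 18 germline tiles over 15 libraries, beside 0.0% of all tested tiles, and 0 over 13, beside 0.257%, shares at which 18 tiles would not be likely to hold a call. In the Ddx4 tile (chr13:112652000-112652999) the wild-type libraries ran from 68.6% to 77.6% (median 75.7%), and the heterozygous ones from 64.1% to 79.9% (median 73.6%). The wild-type range lay inside the heterozygous one. In the Hormad1 tile (chr3:95559000-95559999) the wild-type libraries were at 85.7% to 88.6% and the heterozygous ones at 86.4% to 90.4%, again overlapping. The largest genotype difference of the 8 methylated germline windows was 1.72 percentage points over 13 libraries. Of the 18 tiles, 15 were higher in the heterozygous mean over 13 libraries, beside 66.9% of all 1037 tiles and 60.9% of all 132441 tested tiles. Their median difference was 0.965 percentage points, beside a median of 0.402 over all 1037 tiles and 0.198 over all tested tiles.

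Outside promoters, the methylated CpG-dense tiles lay in genes. A protein-coding gene overlapped 833 of them (80.3%) without a promoter window, 41 lay in other genes, 8 within 1 kb of a gene and 99 (9.55%) were intergenic. Of the other CpG-dense tiles 39.2% lay in protein-coding genes outside promoters and 2.78% were intergenic. For tiles of 3 to 19 cytosines above 50% these shares were 55.5% and 32.2%. Within protein-coding genes of at least 5 kb whose strand was known, 325 of 652 methylated tiles (49.8%) lay in the last 20% of the gene's length and 62 (9.51%) in the first 20%. The other CpG-dense tiles were placed the opposite way, with 84.7% in the first 20% of the length and 3.70% in the last. Tiles that cover a promoter are counted here: 10792 of the other CpG-dense tiles had a position, and 6455 lay in protein-coding genes outside promoters. Promoters lie at gene starts, so this contrast in part repeats the difference in promoter share. Tiles of 3 to 19 cytosines above 50% were spread more evenly, with 28.4% in the last 20% and 15.0% in the first. Whether a tile was exonic, intronic or untranslated was not analysed here.

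**Figure D2:**
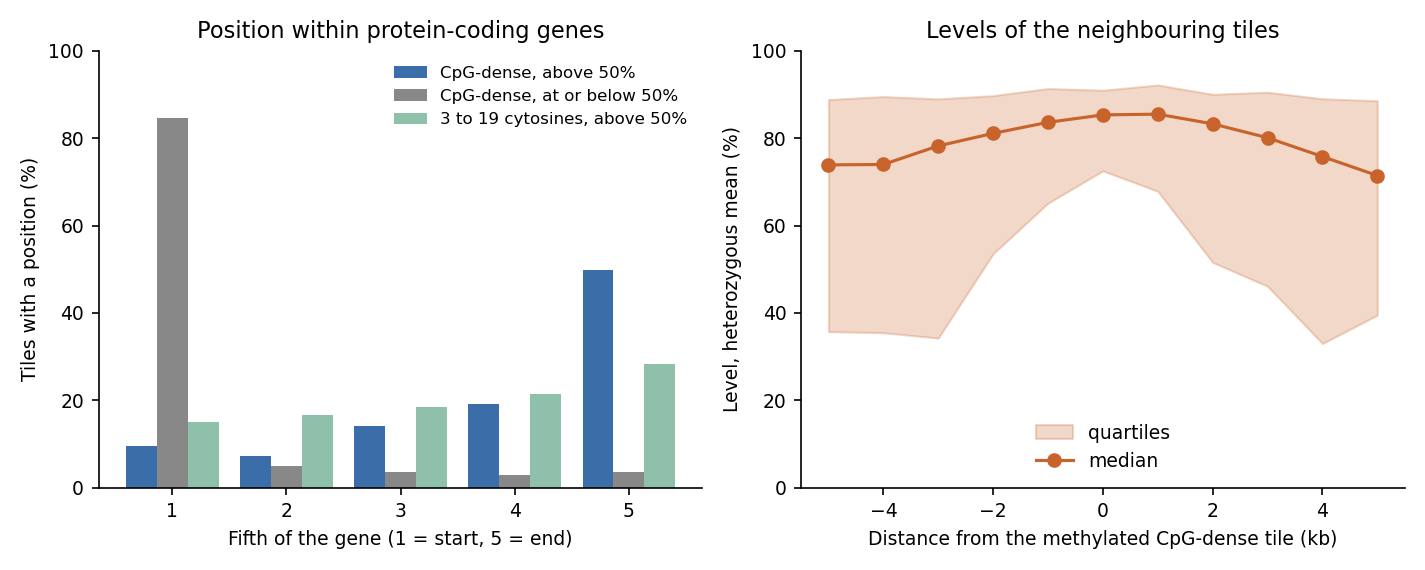
Left, share of tiles (y axis, percent) in each 20% of the length of protein-coding genes of at least 5 kb, from start to end, for methylated CpG-dense tiles (blue), the other CpG-dense tiles (grey) and methylated tiles of 3 to 19 cytosines (green): 49.8% of the first set lie in the last bar group. The grey set includes tiles that cover a promoter. Right, median (line) and quartiles (band) of the heterozygous mean level of tiles 1 to 5 kb to either side of a methylated CpG-dense tile; the median stays above 70% throughout.

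Methylation went with a low number of measured CpG cytosines, the measure of density used here, and the tiles described here are the tail of that relation. The number differs from the CpG sites present: a site can count on both strands, and unmeasured sites do not count. The Dazl promoter window, for example, held 28 CpG sites but 8 measured cytosines. In wild-type libraries 79.1% of tiles with 3 to 9 cytosines were above 50%, 53.6% with 10 to 19, 16.1% with 20 to 29, 5.24% with 30 to 39 and 0.900% with 40 or more. The 85 methylated tiles with 40 or more cytosines included one in Shroom3 (a regulator of apical constriction in epithelia; chr5:92942000-92942999), which had the most cytosines, 103, and stood at 92.1% ± 0.993 (SD, n = 6) in wild-type and 91.9% ± 1.36 (SD, n = 7) in heterozygous libraries. Next were tiles in Hcn2 (a pacemaker ion channel) and Dchs1 (a large cadherin), with 89 cytosines each and means of 57.8% and 50.7% in wild-type libraries. The tile with 89 cytosines at the end of Arhgap23 that holds the printed 4933428G20Rik window stood at 70.5% and 70.7%.

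**Figure D3:**
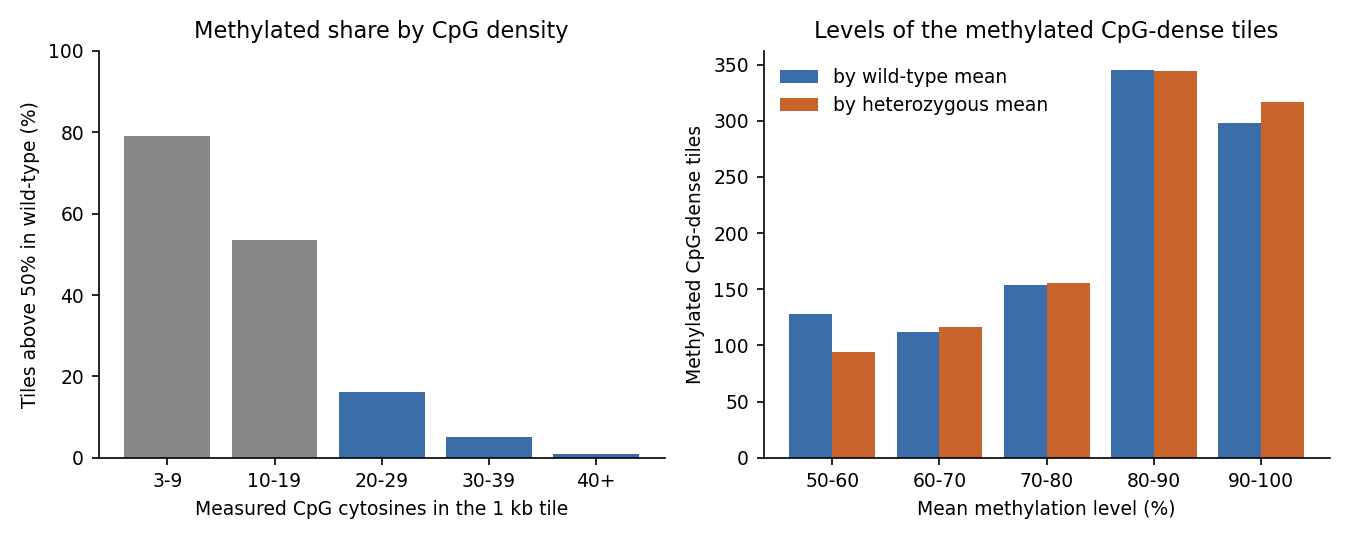
Left, share of autosomal tiles above 50% in wild-type libraries (y axis, percent) by the number of measured CpG cytosines in the tile; blue bars hold the 1037 tiles described here, grey bars sparser tiles. Right, number of the 1037 tiles in each band of mean level, by the wild-type mean (6 libraries, blue) and the heterozygous mean (7 libraries, orange); the band from 80% to 90% is the fullest for both.

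The tiles that overlapped protein-coding genes were scattered over 790 of them, 691 of which held exactly 1, and 910 of the 1037 tiles had no methylated CpG-dense neighbour. In 600 of the 790 genes (75.9%) there was also a CpG-dense tile at or below 50%, so both kinds stood in the same gene. Such a tile was common in any case, in 11101 of all 20661 autosomal protein-coding genes. Plec, which encodes plectin, a giant linker of intermediate filaments, held the most, 6 tiles, 4 of them in the longest run (chr15:76177000-76180999). Their wild-type means were 95.4%, 93.5%, 92.6% and 91.7% from the lower to the higher coordinate. Bsn (a scaffold of the presynaptic active zone), Spen (a transcriptional corepressor) and Zfhx3 (a homeobox zinc finger factor) held 4 each. Genes whose symbols begin with Zfp, Zbtb, Zscan, Zkscan or Znf were 47 of the 790 (5.95%), against 2.18% of 11101 protein-coding genes with another CpG-dense tile and 2.21% of all autosomal protein-coding genes. This set of names was chosen after the gene symbols had been seen. By chromosome, methylated tiles were 2.70% of the CpG-dense tiles of chromosome 16 and 8.76% of those of chromosome 7.

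Pseudogenes, copies of genes that can carry a CpG-rich coding sequence away from its promoter, overlapped 27 of the 1037 tiles (2.60%) in the absence of a protein-coding gene, against 0.450% of the other CpG-dense tiles and 1.67% of the sparser methylated tiles. Their median level was 77.6% in wild-type and 81.7% in heterozygous libraries. Reads of a pseudogene and of its parent gene can be close in sequence, so levels there are less certain.

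Other gene groups behaved unlike the germline list. None of 332 CpG-dense tiles in or near 110 homeobox and developmental regulator genes was methylated, a count of 0 that has no test. Of 42 CpG-dense tiles of collagens, laminins and perlecan, 9 were methylated (Col26a1, Col6a2, Hspg2, Lama5 and Lamb2), all outside promoters. The tiles of Col6a2, which encodes a chain of collagen VI, stood at 91.4% and 87.2% in wild-type libraries. The lists of lung cell genes and of liver and brain genes had 0 of 16 and 2 of 10 CpG-dense tiles methylated, and the clustered protocadherins 1 of 9. Of 60 CpG-dense tiles of imprinted genes 4 were methylated: 2 in Gnas, 1 in H13 and 1 in Zim1. The Gnas tiles, which are known to lie in a locus with parent-specific methylation, had means near the threshold, 55.8% ± 2.77 and 59.2% ± 1.80 (SD, n = 6) in wild-type libraries and 55.6% ± 2.16 and 60.7% ± 3.85 (SD, n = 7) in heterozygous ones. Of their cytosines, 63.3% and 39.1% were above 50% in heterozygous libraries. The SD between cytosines was 11.7 and 27.5 percentage points, so the tile at 59.2% mixed high and low cytosines. The H13 tile, nearest the threshold, had 51.6% ± 8.56 (SD, n = 6) in wild-type and 58.2% ± 7.15 (SD, n = 7) in heterozygous libraries, a difference of 6.62 percentage points (adjusted p = 0.686, quasi-binomial regression). Zim1 stood at 90.6% and 91.0%.

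Levels clustered high. By wild-type mean 345 tiles lay between 80% and 90% and 298 above 90%, against 128 between 50% and 60%. The median over the tiles was 84.7% in wild-type and 85.3% in heterozygous libraries, close to the 84.1% and 84.6% of sparser methylated tiles. Evenness within a tile was read in heterozygous libraries, which took no part in the choice but had levels close to those that did. There 539 tiles (52.0%) had every cytosine above 50%, and 11 had at least 20% of their cytosines under 20%. The SD of cytosine levels within a tile had a median of 10.1 percentage points. That median was 15.7 in tiles of 50% to 60% and 3.56 in tiles above 90%. Of the 28245 cytosines of all tiles 65.8% were above 80%, 33.0% between 20% and 80% and 1.15% under 20%. Most neighbouring tiles were methylated too. Of the measured tiles 1 kb to the lower and the higher coordinate side, 86.1% and 86.6% were above 50% in heterozygous libraries. The share over all tiles of 3 to 19 cytosines was 75.5% in wild-type libraries, so a methylated neighbour is common for sparse tiles anywhere. Of the 650 tiles with a measured neighbour, 44 had one under 20%. At 5 kb, 71.0% and 69.3% of measured tiles were above 50%, and 20.3% and 18.9% were under 20%.

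Just inside the threshold lay tiles of Nyap1, Tbxa2r (the thromboxane receptor) and Ltbp3 (a carrier of latent TGF-beta), with wild-type means of 50.2%, 50.1% and 50.1% and heterozygous means of 54.9%, 54.3% and 51.7%. Just outside lay Boll, Stag3 (a meiotic cohesin subunit) and Shank3 (a synaptic scaffold) at 49.9%, 49.8% and 49.9%, with heterozygous means of 50.4%, 50.1% and 56.1%. Over 13 libraries 10 of the 1037 tiles had a heterozygous mean at or below 50%, and 27 other CpG-dense tiles had one above it.

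The spread between animals was described by the SD of the level. The SD over the 7 heterozygous libraries had a median of 1.69 percentage points, and over the 6 wild-type libraries 1.62, against 2.67 and 2.47 over all tested tiles, which hold fewer reads, and 0.132 and 0.119 over the other CpG-dense tiles, whose levels are near 0. It fell with level, from a median of 4.43 in heterozygous libraries for tiles of 50% to 60% to 0.894 for tiles above 90%. The most even tiles were in Caskin1 (a synaptic scaffold), with an SD of 0.231 over heterozygous libraries, Ppp5c (a protein phosphatase) with 0.274, and Plec with 0.283. The largest SD, 9.61, was at a tile of Nedd4l (a ubiquitin ligase that lowers sodium channels). There the 7 heterozygous libraries ran from 58.7% to 84.2% (median 71.8%) and the 6 wild-type ones from 70.9% to 77.0%. A tile of Bmp4 (a growth factor of lung branching) had an SD of 9.08 in heterozygous and 7.68 in wild-type libraries, a large spread in both genotypes.

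No tile was called for a difference in spread between genotypes. A limma model on absolute deviations from the genotype mean, on the arcsine-square-root scale with sex as covariate, called 0 of 1037 over 13 libraries (smallest adjusted p = 0.380), beside 0.00227% of all tested tiles. At an unadjusted p under 0.05 there were 64 (6.17%), 35 of them with the larger spread in heterozygous libraries, beside 7.78% of all tiles. The SD was larger in heterozygous libraries at 53.9% of the 1037 tiles and at 55.3% of all tested tiles.

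The mean over all 1037 tiles lay within a narrow range in every library, from 79.4% (wild-type replicate 5) to 82.1% (heterozygous replicate 1). Heterozygous libraries averaged 80.9% ± 1.08 (SD, n = 8) and wild-type ones 80.3% ± 0.797 (SD, n = 7), a difference of 0.532 percentage points that was smaller than either SD. Over 13 libraries the means were 80.9% ± 1.15 (SD, n = 7) for heterozygous and 80.2% ± 0.770 (SD, n = 6) for wild-type, 0.741 apart. Over all tested tiles the differences were 0.514 and 0.600. The groups overlapped: 5 of the 8 heterozygous libraries lay within the wild-type range and 3 above it. Among the 13, wild-type males (n = 2, 81.1% and 81.2%) stood above wild-type females (n = 4, 79.4% to 79.95%), whereas heterozygous males ran from 79.8% to 82.1% and heterozygous females from 79.6% to 82.1%. Heterozygous minus wild-type was thus 1.46 percentage points in females and -0.400 in males, and it was 0.169 within the deposited tables of 2 decimals (4 heterozygous, 4 wild-type) and 1.71 within those of 3 decimals (3 and 2). Wild-type males were 52 to 53 weeks old and wild-type females 48 to 50, so sex and age cannot be told apart in wild-type mice.

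**Figure D4:**
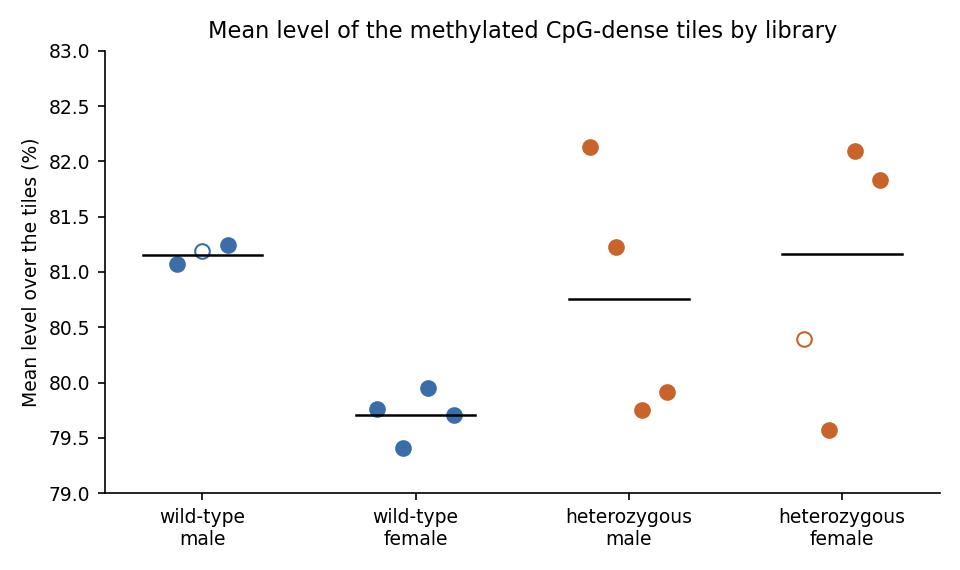
Mean level over the 1037 tiles (y axis, percent, from 79 to 83) in each library by labelled genotype and sex; open circles are wild-type replicate 2 and heterozygous replicate 5, whose Y chromosome goes against the label, and lines are means of the filled circles. Wild-type males lie above wild-type females, and heterozygous libraries of either sex span about 79.6% to 82.1%.

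With all 15 libraries as labelled, no methylated CpG-dense tile was called by genotype. Methylated and unmethylated reads of each tile were compared by quasi-binomial regression with sex as covariate, fitted over all 132441 tested tiles, with p adjusted over all of them by the Benjamini-Hochberg method and a threshold of 0.05. The count was 0 of 1037, beside 0.0% of all tested tiles. At an unadjusted p under 0.05 there were 129 (12.4%), beside 9.0% of all tested tiles, and limma on log ratios also called 0. The difference between genotype means ran from -2.26 (5th percentile of tiles) to 4.39 percentage points (95th percentile), and 64.2% of tiles were higher in heterozygous libraries, beside 60.6% of all tested tiles.

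Over the 13 libraries whose Y chromosome accords with the label, 12 tiles were called (1.16%), beside 0.257% of all tested tiles. Of these, 11 were higher in heterozygous libraries (1.06%, beside 0.21% of all tiles called higher) and 1 lower (0.0964%, beside 0.0468%). At an unadjusted p under 0.05 there were 159 (15.3%), beside 10.5% of all tested tiles. The 7 heterozygous and 6 wild-type libraries did not overlap at 11 of the 1037 tiles, beside 0.544% of all tiles. Tiles near the middle of the scale carried most calls: 7 of the 12 had wild-type means of 50% to 70% and none was above 90%. None of the 12 covered a promoter, 9 lay in protein-coding genes and 3 in pseudogenes. The wild-type libraries of this fit are those that chose the tiles, so these shares describe the set and give no test of it. The count was 4 by limma on log ratios and 4 with each tile's own dispersion, and 22 with age beside sex. Leaving out 1 library gave 6 to 16 calls, with 6 without heterozygous replicate 7 or 8 and 7 without wild-type replicate 4, 5 or 6.

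The smallest adjusted p was at Npcd and Cbx6, which share the tile (chr15:79828000-79828999, 65 cytosines, a median of 8285 read counts per library summed over cytosines). Cbx6 encodes a chromobox subunit of Polycomb repressive complex 1. In the 6 wild-type libraries the tile had 68.4% to 79.7% (median 73.0%) and in the 7 heterozygous ones 84.5% to 89.5% (median 87.7%). The groups did not overlap. Wild-type libraries averaged 73.3% ± 3.90 (SD, n = 6) and heterozygous ones 87.2% ± 1.57 (SD, n = 7), a difference of 13.9 percentage points with an adjusted p of 0.000433 by the quasi-binomial regression. Wild-type replicate 2, left out of this fit, had 85.1% and heterozygous replicate 5 had 77.5%. Over all 15 libraries the difference was 11.0 percentage points and the adjusted p 0.183.

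The tile of Efna2 (chr10:80186000-80186999, 21 cytosines) was the 1 that was lower. Efna2 encodes ephrin A2, a membrane-bound ligand of Eph receptors. Wild-type libraries had 46.6% to 56.7% (median 51.2%) and heterozygous ones 29.96% to 38.8% (median 37.0%), without overlap. Wild-type libraries averaged 51.7% ± 3.96 (SD, n = 6) and heterozygous ones 36.0% ± 3.04 (SD, n = 7). The level thus fell by 15.8 percentage points (adjusted p of 0.000646, quasi-binomial regression), and over 15 libraries the heterozygous mean was lower without passing (difference -11.1, adjusted p = 0.349). Wild-type replicate 2 had 32.9% and heterozygous replicate 5 had 51.6%.

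Among the other genes with a tile that rose were Brsk1 (a kinase of neuronal polarity, whose tile chr7:4707000-4707999 also overlaps Tmem150b), Myh14 (a nonmuscle myosin heavy chain) and Itga11 (a collagen-binding integrin of fibroblasts). The Brsk1 tile had 50.1% to 57.0% in the 6 wild-type libraries (median 52.6%) and 62.8% to 70.9% in the 7 heterozygous ones (median 66.1%), a rise of 13.1 percentage points (adjusted p = 0.00123, quasi-binomial regression). The Myh14 tile (chr7:44665000-44665999) had 49.7% to 53.4% (median 51.8%) and 57.8% to 65.2% (median 59.9%), a rise of 9.09. In neither did the groups overlap. At Itga11 (chr9:62767000-62767999), where the rise was 12.9 points, the wild-type libraries split by label: the 2 males had 63.4% and 65.1% and the 4 females 51.9% to 54.2%, while heterozygous libraries ran from 62.3% to 76.6%, so the groups overlapped.

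The remaining 7 tiles rose by 3.56 (Tnrc18) to 11.2 (Gm8762) percentage points. Foxa3 (a forkhead factor of liver and gut) rose from 72.1% ± 3.61 (SD, n = 6) to 81.5% ± 2.41 (SD, n = 7), Ankrd13b (an endosomal ubiquitin-binding protein) from 80.5% to 87.6%, and Lmtk3 (a membrane kinase) from 65.9% to 72.2%. The pseudogenes Gm8762, Gm8641 and Gm4799 rose by 11.2, 7.71 and 8.27 points. The next tile within Lmtk3 differed by 2.39 percentage points (adjusted p = 0.107) and the next within Tnrc18 by -0.07 (adjusted p = 0.928), by the same regression. Leaving out each of the 13 libraries in turn took the call from Gm8641 in 4 fits, Itga11 in 6, Ankrd13b in 7, Gm4799 and Foxa3 in 9 each and Tnrc18 in 11, and from none of the other 6 tiles.

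The 2 libraries left out did not sit with their labels at these tiles. Wild-type replicate 2 was nearer the heterozygous mean at 12 of the 12 tiles, and heterozygous replicate 5 was nearer the wild-type mean at 10 of 12, the exceptions being Myh14 and Foxa3. Neither library entered the mean level that chose the tiles or this fit, though both counted toward the coverage that a CpG-dense tile needs. Their labels were not changed, and no result was computed with them in the other group.

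**Figure D5:**
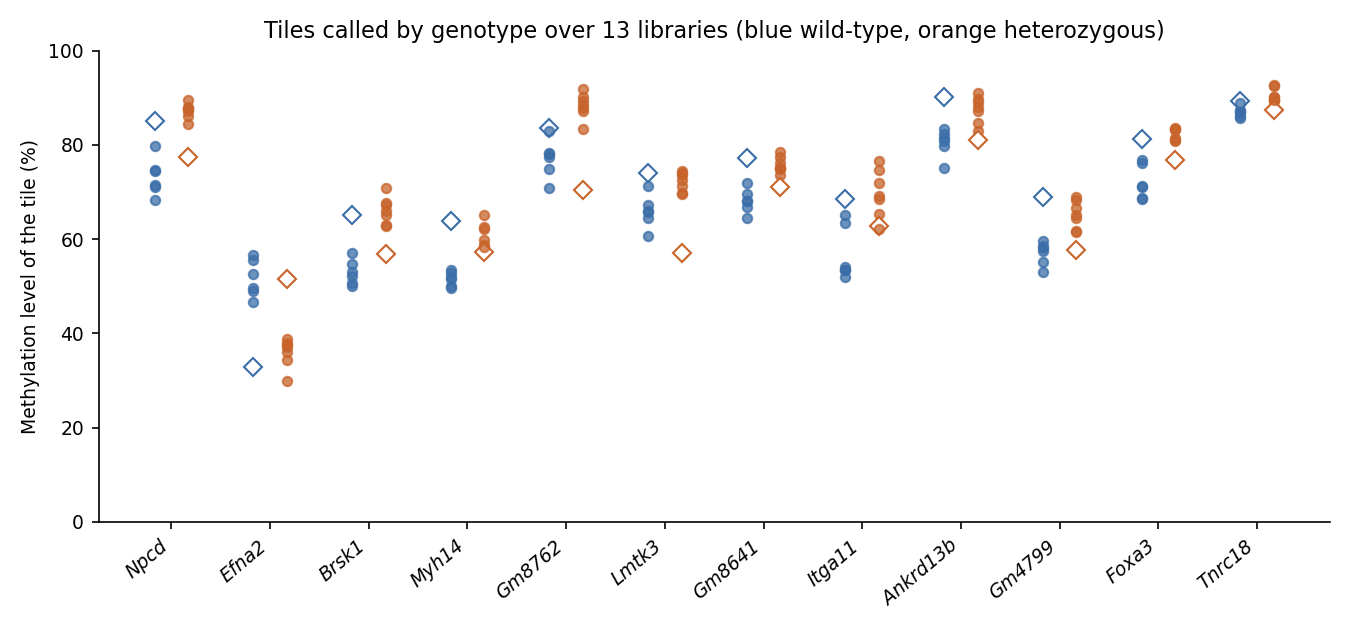
Level of each of the 12 tiles called over 13 libraries (y axis, percent) in every library, wild-type in blue and heterozygous in orange, by gene of the tile; filled circles entered the fit, and open diamonds are wild-type replicate 2 and heterozygous replicate 5. The blue diamond lies nearer the orange circles in all 12 tiles, and the orange diamond nearer the blue circles in 10.

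Below the threshold, tiles with the smallest p among those lower in heterozygous libraries were near Mir34a (the gene of a microRNA induced by p53, 455 bases from the tile), in Agap3, Bahcc1 and Yeats4. The Mir34a tile (chr4:150067000-150067999) stood at 73.4% to 80.004% in the 6 wild-type libraries and 59.2% to 71.1% in the 7 heterozygous ones, without overlap, but its difference of -8.02 percentage points did not pass (adjusted p = 0.119, quasi-binomial regression). Agap3 (an endosomal GTPase-activating protein) had 75.5% ± 3.47 (SD, n = 6) against 68.9% ± 3.49 (SD, n = 7; adjusted p = 0.0749).

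Sex was not linked to any of the tiles past the threshold. Over 13 libraries 0 of 1037 were called by the sex term of the same regression, beside 0.00604% of all tested tiles, and limma on log ratios also called 0. At an unadjusted p under 0.05 there were 109 (10.5%), beside 7.4% of all tiles.

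The genotype difference depended on labelled sex at 6 tiles (0.579%), beside 0.236% of all tested tiles, and at 226 (21.8%) at an unadjusted p under 0.05, beside 14.5%. In 4 of the 6 tiles, those of Yeats4 (a reader of acetylated histones), Tecr (an enzyme of very long chain fatty acid synthesis), Pip4k2b (a lipid kinase) and Rin3 (a Rab5 exchange factor), heterozygous minus wild-type in females ran from -20.6 (Yeats4) to -12.3 (Pip4k2b) percentage points. In males the same tiles differed by -0.892 to 4.16. Fut7 (a fucosyltransferase that makes selectin ligands) and Sema6b (a semaphorin) went the other way, 14.1 and 10.3 points higher in heterozygous females and -1.46 and -3.26 in males. Only 2 wild-type males entered this fit, both older than the wild-type females. With age as a further covariate, an alternative chosen after seeing the data, the regression called 0 tiles, and it called 0 over all 15 libraries. Leaving out 1 of the 13 libraries in turn gave 0 (without wild-type replicate 1, 3, 4, 5 or 6 or heterozygous replicate 8) to 90 calls (without heterozygous replicate 6), and 54 without heterozygous replicate 1.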

How the data were processed

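The authors deposited 1 table per library of CpG cytosines, kept by strand. Per the file headers, coverage was deposited as read counts and listed only from 10 reads, and the percent of reads with C and T was computed by the authors from these counts. Bismark and methylKit are named per the submitters' processing notes for build mm10, without versions. Here percentages were turned back into whole read counts and 1714946 autosomal cytosines listed in all 15 libraries were placed into tiles. Each tile with at least 3 cytosines was fitted by quasi-binomial logistic regression (Python 3.11.15, NumPy 2.4.6, SciPy 1.17.1) with sex as covariate, an F test, dispersion of at least 1 moderated across tiles by limma's squeezeVar method, and Benjamini-Hochberg adjustment. Spread and log ratios used limma 3.58.1 (R 4.3.3). The regression was tested on simulated data. Genes and promoter sequences are RefSeq's for GRCm38.p6; all 245807 cytosines in promoter windows fell on C or G of the listed strand. The members, gene lists and tests were chosen with earlier results of these data known. Tiles were named for cytosine number, smallest p by genotype or sex, largest or smallest SD, nearness to 50%, the longest run and list membership; called tiles are named as well. Replicate numbers follow accession order and pair no animals. Alternatives varied the tool, dispersion, coverage, tile grid, covariates, choice of tiles and libraries. Reads carried no molecular identifiers, so counting errors cover counting only, and they take the counts at each cytosine as independent. Errors are SD over animals.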

Additional observations from a re-analysis of the deposited data

Results flagged for a closer look

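In 32 groups (tiles named by genotype and the mean over all tiles, per labelled genotype), 7 held a library apart from the rest of its group by Dixon's criterion. Chance alone meets it in about 1 group in 20, a rate that does not hold for wild-type replicate 2 and heterozygous replicate 5 here, since many of the tiles were named for small p in a fit without them. Heterozygous replicate 5 lay apart at Gm8762 (70.3%, nearest other 83.5%), Lmtk3 (57.1%, nearest 69.6%), Efna2 (51.6%, nearest 38.8%) and Npcd (77.5%, nearest 84.5%). Wild-type replicate 2 lay apart at Myh14 (64.0%, nearest 53.4%) and Efna2 (32.9%, nearest 46.6%). These are the libraries whose Y chromosome goes against the label. Wild-type replicate 6 lay apart at the tile near Mir34a (80.004%, nearest 75.9%).

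At 6 tiles the genotype difference in males minus that in females passed the interaction term of the regression over 13 libraries. It was 19.7 percentage points at Yeats4 (adjusted p = 0.0293), 24.3 at Tecr (adjusted p = 0.0320), 14.5 at Pip4k2b (adjusted p = 0.0440), -15.5 at Fut7 (adjusted p = 0.0488), -13.5 at Sema6b (adjusted p = 0.0495) and 17.2 at Rin3 (adjusted p = 0.0499). Age differs between the wild-type sexes, and its part in these differences cannot be told apart from that of sex.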

How the results depend on the processing

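No paired analysis was possible because replicate numbers were given in accession order and pair no animals. The genotype count over 15 libraries was 0 in all 11 alternatives other than leaving out a library, 7 of which tested another number of tiles than 1037; without 1 library in turn it ran from 0 to 3, and the 3 came without wild-type replicate 2. The 12 calls over 13 libraries became 4 with each tile's own dispersion, 4 with limma on log ratios, 22 with age beside sex, 5 when tiles had to exceed 70%, 3 when they had to hold 40 cytosines, and 0 in tables of 2 decimals alone (8 libraries, chosen after seeing the data). Without 1 library in turn the count ran from 6 to 16, lowest without heterozygous replicate 7 or 8 (6 each), and 7 without wild-type replicate 4, 5 or 6; Npcd, Efna2, Brsk1, Myh14, Gm8762 and Lmtk3 were called in all 13 of these fits. The sex count was 0 throughout. The 6 genotype-by-sex calls became 0 with all 15 libraries and 0 with age, and ran from 0 (without wild-type replicate 1, 3, 4, 5 or 6, or heterozygous replicate 8) to 90 (without heterozygous replicate 6) when 1 library was left out; without heterozygous replicate 1 there were 54. The genotype difference of the mean over all tiles, 0.532 percentage points, was 0.169 in tables of 2 decimals, 1.71 in tables of 3 decimals and 0.741 without wild-type replicate 2 and heterozygous replicate 5. Causes were not tested. For 15 tiles named by genotype no alternative changed a direction; over 13 libraries 19 of 270 alternative fits lost a call and 6 gained one. The counting error of a tile had a median of 0.623 percentage points, and the SD between animals a median of 1.69 in heterozygous libraries. That error takes the counts at each cytosine as independent and can be too small. Whether the SD exceeds counting noise is therefore not decided by these values.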
